A study of Homo sapiens with 26 samples.

Results

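RNA sequencing of the MYCN-amplified human neuroblastoma line KELLY was examined for 33 target genes of the transcription factor p53 among the 26485 genes of the count tables. The genes were taken by symbol from a list of textbook p53 targets, and this list was proposed with earlier results of these data in view, which had set the sh4 line apart. All KELLY cells in culture carried the doxycycline-inducible lentiviral vector FH1UTG (F1HUTG in the labels), either empty (EV) or with a hairpin RNA directed against the co-repressor gene RUNX1T1, named sh4 or shAMB. Each of the 3 lines received doxycycline or its solvent DMSO for 72 h, with 3 libraries per group. Column heads in the cell culture table read Neg and Pos, and these were taken as DMSO and doxycycline from the words alone, so that the direction of each cell culture comparison rests on this reading. A second set held 8 xenografts of hairpin-carrying KELLY cells grown in the flanks of female NOD SCID gamma mice aged 5 to 6 weeks, of which 4 are labelled control (control food) and 4 are labelled RUNX1T1 KO (food with doxycycline). The labels do not name the xenograft hairpin, whereas the methods of the study name the Ambion-based hairpin for its xenograft work, and the mice contribute host cells to each tumour. Whether a line was derived from 1 clone, and whether replicates came from separate cultures, is not given in the sources used here, so that p-values measure the spread between these libraries.

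The p53 protein is a transcription factor held at low levels by MDM2, a ubiquitin ligase that is itself a p53 target, which closes a negative feedback loop. DNA damage, oncogene activity or ribosome stress frees p53 from this control, after which it binds paired half-sites in target genes that halt the cell cycle, repair DNA, alter redox metabolism or favour apoptosis.

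The sequence that p53 recognises is shown as background to these genes. A half-site of 10 bases is written as 3 purines, C, 2 letters that are A or T, G and 3 pyrimidines, and a full site is a pair of half-sites. The motif reads as itself on the opposite strand, so that a single scan covers both strands. RefSeq promoter windows of 300 bases (250 before to 50 after the start) were matched for 27 of the 33 genes. An exact half-site stood in 4 of these (14.815%; AEN, FDXR, PLK2 and RPS27L) and in 5.933% of all 15811 promoters. Exact full sites with a spacer of 0 to 13 bases were found in 0 of 27 against 3 of 15811. In windows reaching 2500 bases to either side of the start, an exact full site of 20 bases without spacer was present in 2 of 27 genes, PLK2 and ZMAT3, and in 0.057% of all genes. A site with at most 2 letters off, outside the C and G of the cores, was present in 13 of 27 (48.148%) and in 3.776% of all genes. This wider search was chosen after the exact search had been seen, these genes are known for such sites, and a match is a description of the letters and not a bound site. Sites of 8 genes that recur in the results are given 5′ to 3′ on the strand of the gene, with the core of 4 bases of each half-site in capitals.
CDKN1A: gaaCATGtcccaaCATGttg
MDM2: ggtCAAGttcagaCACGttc
BTG2: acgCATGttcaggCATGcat
DDB2: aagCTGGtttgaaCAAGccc
EDA2R: gaaCATGcctggaCGTGtcc
FAS: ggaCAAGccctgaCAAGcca
PLK2: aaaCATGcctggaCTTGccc
ZMAT3: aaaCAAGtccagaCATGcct

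On GRCh38, the CDKN1A site lies at chr6:36676449-36676468 (+), with its centre at -2255 from the RefSeq start and upstream of the canonical transcript. The BTG2 site, at chr1:203303642-203303661 (+), and the PLK2 site, at chr5:58462274-58462293 (-), are likewise upstream, at -1867 and -2197. Sites of MDM2 (chr12:68808923-68808942, +), FAS (chr10:88991309-88991328, +), EDA2R (chrX:66638713-66638732, -) and ZMAT3 (chr3:179070188-179070207, -) lie in intron 1 of the canonical transcript, at 761, 521, 547 and 1612 bases after the start. The DDB2 site (chr11:47214969-47214988, +) lies in the untranslated part of exon 1, at 525 bases after the start.

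RUNX1T1, the gene the hairpins are directed against, was not called with doxycycline in any line or in KO against control xenografts. Its level was 36.5 to 44.05 CPM (counts scaled to library size with TMM factors) in EV libraries, 30.1 to 35.01 in sh4, 39.9 to 44.1 in shAMB and 24.3 to 43.1 in xenografts. Its log2 fold changes were -0.16 (EV), -0.11 (sh4), 0.06 (shAMB) and -0.23 (xenografts) (adjusted p = 0.672, 0.117, 0.378 and 0.229), so the RNA does not check the labels and groups are named here as labelled. Before induction RUNX1T1 was called lower in sh4 than in EV with DMSO (log2 fold change -0.29, SE 0.0549), and its doxycycline effect was 0.21 higher in shAMB than in EV (adjusted p = 0.0353). All 9 neuroblastoma markers, among them HAND2, GATA3 and MYCN, were present in every group, and their summed level ran from 4403 to 4693 CPM in shAMB with DMSO and from 8426 to 9287 CPM with doxycycline. Without MYCN, the sums of the other 8 were 2273 to 2552 and 2482 to 2735 CPM. Endothelial marker sums reached at most 16.3 CPM and leukocyte marker sums 2.67 CPM, and fibroblast marker sums ranged from 48.5 to 131 CPM. The highest fibroblast sum, 131 CPM, was in cultured sh4 cells with doxycycline, a culture without host cells. In bulk RNA, fewer cells of a type and less RNA per cell cannot be told apart. Libraries also differed in GC balance, measured as the median log2 deviation of the 25% of genes richest in GC minus that of the 25% poorest. This tilt was -0.58 to -0.28 in shAMB with DMSO and 0.06 to 0.47 with doxycycline, without overlap. In sh4 it ran from -0.01 to 0.56 with DMSO and from -0.41 to 0.48 with doxycycline, where replicate 1 with DMSO and replicate 3 with doxycycline were highest.

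Of the 33 genes, 31 had enough reads to be tested in culture and 30 in xenografts. GADD45B and TNFRSF10A were tested in neither set and GDF15 in culture alone. A gene is called here when its adjusted p in the edgeR quasi-likelihood test, corrected over all genes tested, is under 0.05. The largest called changes, given below with values per library, were chosen in part for groups that do not overlap. Lack of overlap in them is therefore not a separate result. The empty vector gave 0 calls among the members in either direction, where 0.0134% of all genes were called higher and 0.0805% lower. Without adjustment, 0 members were higher and 5 lower in EV at p under 0.05 (GADD45A, PLK2, FAS, TRIAP1 and ZMAT3), and DESeq2 also called 0. Over all 14905 genes, 879 had an unadjusted p under 0.05 in EV in either direction. Doxycycline in sh4 raised 12 members and lowered 0, against 22.9% of all tested genes higher and 17.99% lower. DESeq2 likewise called 12 and 0, and without adjustment 14 had p under 0.05 on the higher and 1 (GDF15) on the lower side. Over all 14905 genes, 7243 had an unadjusted p under 0.05 in sh4 in either direction. In shAMB, 10 members were higher and 13 lower, against 37.6% and 28.4% of all genes. Xenografts labelled KO had 10 members higher and 5 lower than control xenografts, against 21.2% and 19.9%. Members had a median log2 fold change of -0.05 with the empty vector, 0.15 for sh4, 0.01 for shAMB and 0.18 for xenografts, where the medians over all genes tested were 0.01, -0.00, 0.10 and 0.02. With length and GC trends removed, the sh4 medians were 0.020 for the members and -0.026 for all genes. Those of the xenografts were then -0.075 and -0.085.

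**Figure D1:**
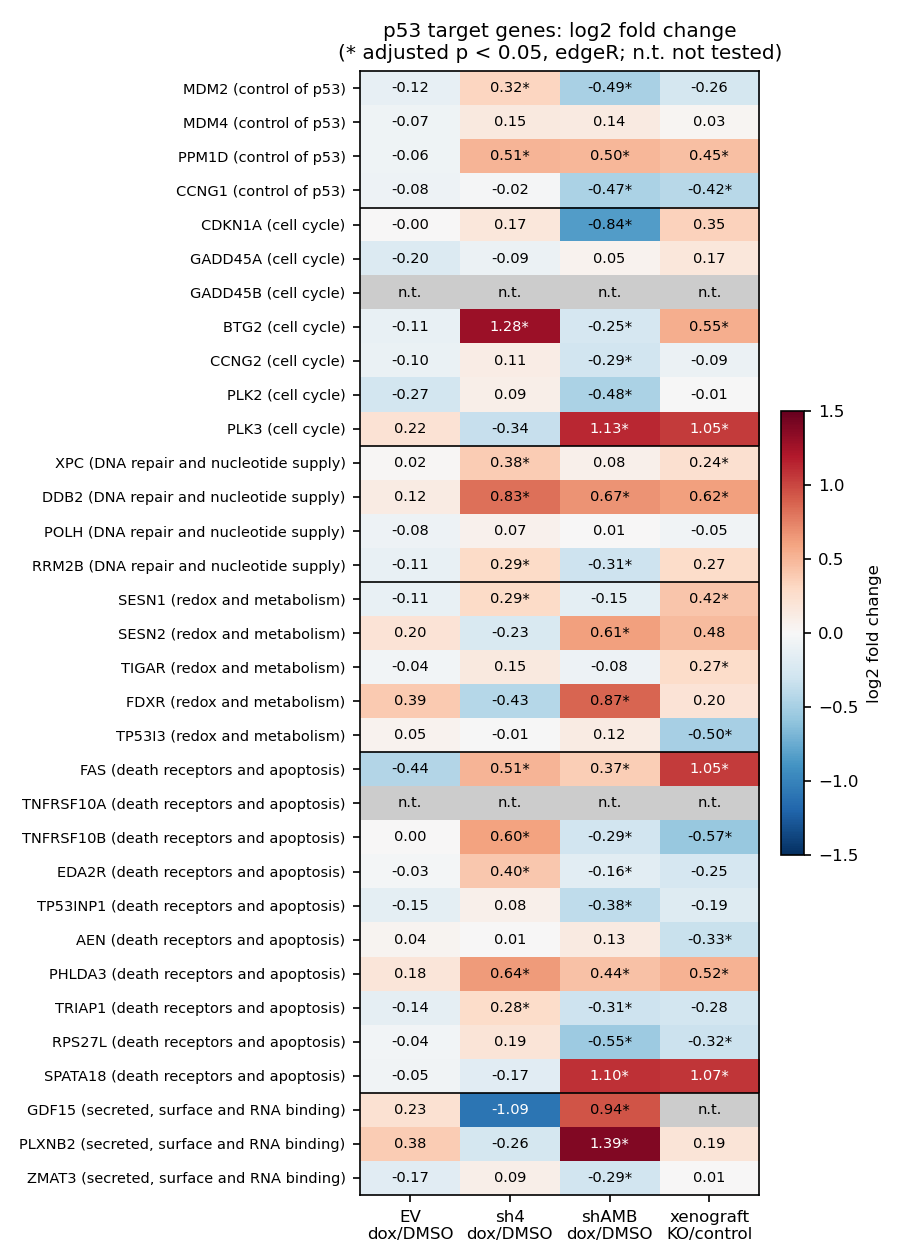
Log2 fold change (colour and number) of the 33 p53 target genes, grouped by role in rows, for doxycycline against DMSO in the EV, sh4 and shAMB lines (3 libraries per group) and for KO against control xenografts (4 per group), with asterisks at adjusted p under 0.05. The EV column has no asterisk, the sh4 column has 12 and all of them are red, and the shAMB column has 10 red and 13 blue.

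**Figure D2:**
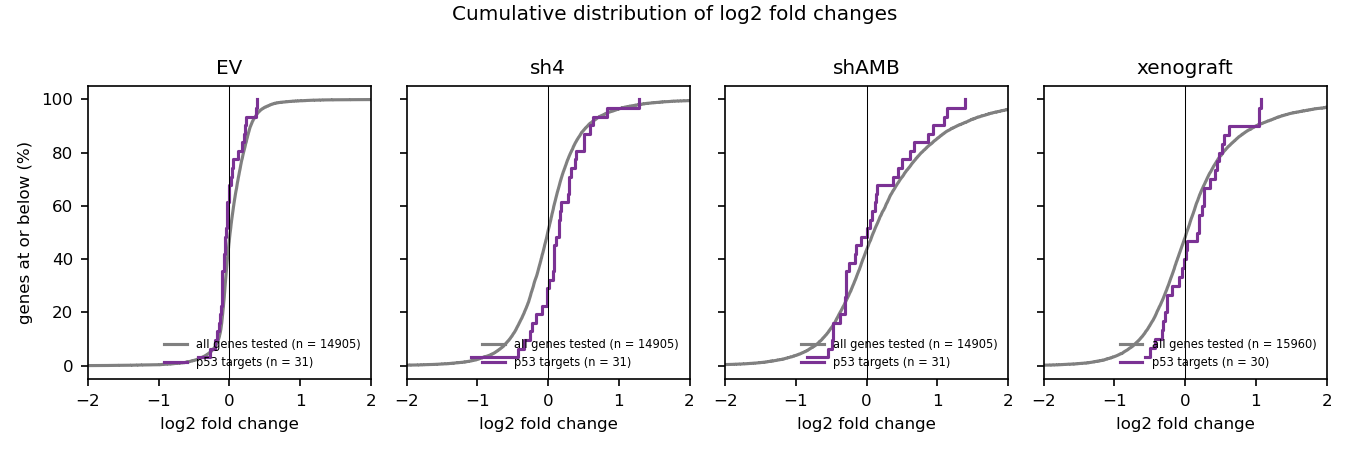
Cumulative share of genes (y axis, percent) at or below each log2 fold change (x axis) for the p53 targets tested (purple) and all genes tested (grey) in the 4 comparisons. In sh4 the purple curve lies to the right of the grey curve over most of its range, with medians of 0.15 and -0.00, whereas in shAMB the medians are 0.01 and 0.10.

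In the sh4 line, doxycycline raised 12 of the 31 tested members (38.7%), among them BTG2, DDB2, TNFRSF10B and MDM2, and 0 were called lower. Of these 12, 5 belong to the death receptor and apoptosis members, 3 to DNA repair and nucleotide supply, 2 to the control of p53 and 1 each to the cell cycle and to redox and metabolism. The largest rise was that of BTG2, which encodes an antiproliferative co-factor of the RNA deadenylase complex (chromosome 1, 203305491 to 203309602). It measured 38.9, 41.3 and 41.2 CPM with DMSO and 97.2, 100.7 and 97.4 CPM with doxycycline, with a log2 change of 1.28 (SE 0.0518, adjusted p = 4.6e-11). All 3 treated libraries were far above all 3 controls. DDB2, the damaged DNA recognition subunit of nucleotide excision repair (chromosome 11, 47214465 to 47239217), went from 13.3, 13.3 and 12.3 CPM to 22.2, 22.8 and 23.9 CPM. Its log2 fold change was 0.83 (SE 0.0882, adjusted p = 1.9e-06), and the groups did not overlap. PHLDA3, an inhibitor of AKT membrane binding, was at 11.6, 9.97 and 9.40 CPM with DMSO and 14.5, 13.3 and 20.6 CPM with doxycycline (log2 fold change 0.64, SE 0.162, adjusted p = 0.00479). Replicate 3 with doxycycline was the highest of these libraries, and it was also high in GC tilt. TNFRSF10B, the TRAIL death receptor DR5, rose from 85.2, 84.7 and 81.7 CPM to 124.2, 124.9 and 131.4 CPM (log2 fold change 0.60, SE 0.0348, adjusted p = 2.2e-09). Its spread within each group was small beside the difference.

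The other 8 called members rose by less. PPM1D, the phosphatase WIP1 that switches p53 signalling off, changed by 0.51 on the log2 scale. FAS, the CD95 death receptor, also changed by 0.51 but at a low level, from 2.30 ± 0.377 to 3.29 ± 0.106 CPM (mean ± SD, n = 3). EDA2R, a TNF receptor family member, changed by 0.40 and XPC, the lesion sensor of nucleotide excision repair, by 0.38. RRM2B, the p53-inducible ribonucleotide reductase subunit, and SESN1, a sestrin that restrains mTORC1, both changed by 0.29, and TRIAP1, a mitochondrial lipid transfer partner, by 0.28. MDM2 measured 180.3, 188.2 and 197.4 CPM with DMSO and 246.6, 245.1 and 215.8 CPM with doxycycline. Its log2 fold change was 0.32 (SE 0.0568, adjusted p = 2.8e-04), again without overlap.

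CDKN1A, which encodes the cyclin-dependent kinase inhibitor p21 and is the most used readout of p53 activity (chromosome 6, 36676460 to 36687337), did not pass the test in sh4. It measured 25.1, 20.9 and 21.5 CPM with DMSO and 22.1, 23.3 and 30.4 CPM with doxycycline, and the groups overlapped. The log2 fold change was 0.17 (SE 0.134, 95% confidence interval -0.12 to 0.45, adjusted p = 0.338), and with length and GC trends removed it was 0.29 (adjusted p = 2.8e-04). Removing those trends gave 14 members higher and 4 lower in sh4, with CCNG1, POLH, SPATA18 and ZMAT3 lower. Over all 14905 genes the calls went from 3410 higher and 2681 lower to 3697 and 4622. Without replicate 3 of sh4 with doxycycline, 5 members were lower, namely PLK3, SESN2, FDXR, GDF15 and PLXNB2, whose transcripts have 59.6% to 64.1% GC. Over all genes, 4082 of 15069 were lower without that library, against 2681 of 14905 with it.

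**Figure D3:**
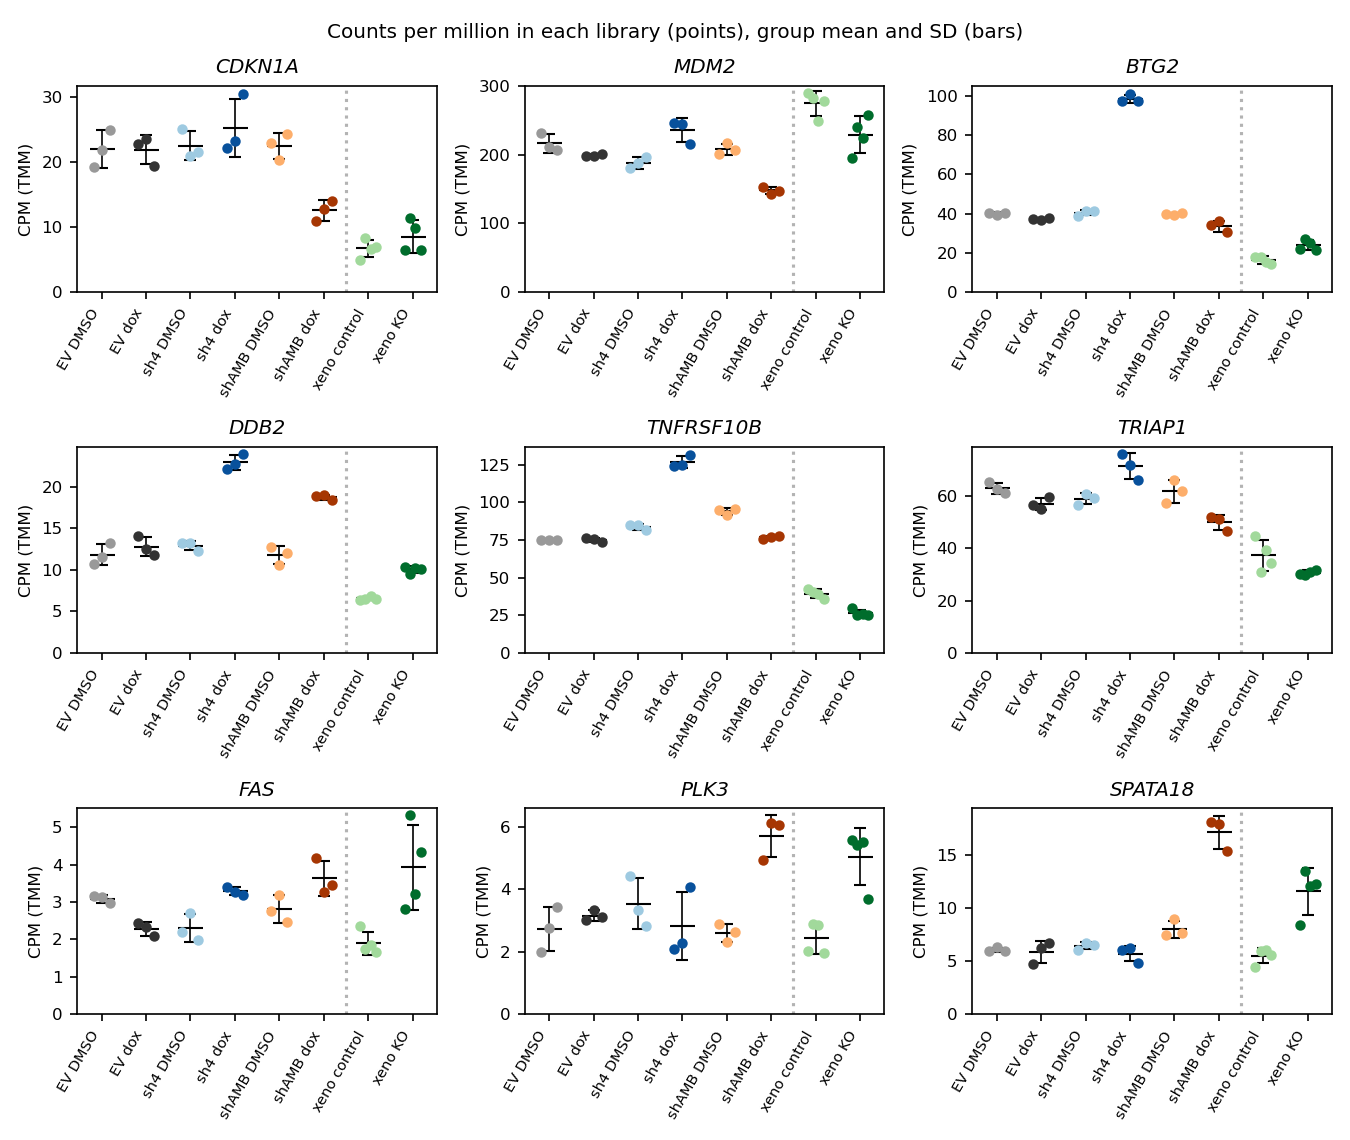
CPM (y axis, from 0) of 9 p53 target genes in every library (points), with group means and SD (bars), for the 6 cell culture groups (n = 3) and, right of the dotted line, the 2 xenograft groups (n = 4). BTG2 and TNFRSF10B stand apart in sh4 with doxycycline, CDKN1A and MDM2 are lowest among culture groups in shAMB with doxycycline, and DDB2 is raised in both hairpin lines and in KO xenografts.

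In the shAMB line, CDKN1A and MDM2 were lowered with 11 further members, while 10 rose. CDKN1A measured 22.9, 20.3 and 24.2 CPM with DMSO and 10.9, 12.8 and 14.0 CPM with doxycycline. All treated libraries were below all controls, with a log2 change of -0.84 (SE 0.137, adjusted p = 6.4e-05), the largest fall among the members. MDM2 went from 201.2, 217.1 and 206.4 CPM to 153.7, 143.6 and 147.4 CPM (log2 fold change -0.49, SE 0.0570, adjusted p = 2.0e-06). RPS27L, a ribosomal protein paralogue linked to MDM2 turnover, fell from 79.1, 85.4 and 82.8 CPM to 62.3, 56.8 and 50.4 CPM (log2 fold change -0.55, SE 0.0773, adjusted p = 1.6e-05). PLK2, a polo-like kinase of centriole duplication, was at 61.3, 61.2 and 61.2 CPM with DMSO and 45.0, 45.3 and 41.4 CPM with doxycycline (log2 fold change -0.48, SE 0.0617, adjusted p = 5.8e-06). For each of these 4 genes the groups did not overlap, which the choice of RPS27L and PLK2 required. The further 9 members that fell had log2 fold changes from -0.47 for CCNG1 to -0.16 for EDA2R, and they included TP53INP1 (-0.38), RRM2B (-0.31), TRIAP1 (-0.31), CCNG2 (-0.29), TNFRSF10B (-0.29), ZMAT3 (-0.29) and BTG2 (-0.25).

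Among the 10 members that rose in shAMB, PLXNB2, a semaphorin receptor (chromosome 22, 50274979 to 50307646), had the largest log2 fold change. It went from 29.1, 21.8 and 29.4 CPM to 56.5, 67.8 and 86.1 CPM (log2 fold change 1.39, SE 0.300, adjusted p = 8.0e-04). PLK3, a stress-responsive polo-like kinase (chromosome 1, 44800377 to 44805990), rose from 2.88, 2.31 and 2.62 CPM to 4.95, 6.14 and 6.07 CPM (log2 fold change 1.13, SE 0.235, adjusted p = 5.7e-04). SPATA18, a regulator of mitochondrial quality control (chromosome 4, 52051304 to 52097299), rose from 7.44, 8.97 and 7.62 CPM to 18.2, 18.01 and 15.4 CPM (log2 fold change 1.10, SE 0.126, adjusted p = 1.7e-06). The means of these 3 genes rose by more than 2-fold. No treated library overlapped a control, which their choice required. FDXR, the mitochondrial ferredoxin reductase, was at 3.28, 3.22 and 4.09 CPM with DMSO and 5.60, 6.65 and 7.09 CPM with doxycycline (log2 fold change 0.87, SE 0.322, adjusted p = 0.0263). The other members that rose were GDF15 (0.94, at under 1 CPM and with overlapping groups), DDB2 (0.67), SESN2 (0.61), PPM1D (0.50), PHLDA3 (0.44) and FAS (0.37). Calls were lost when any of 4 libraries was left out for FDXR (adjusted p of 0.0586 to 0.0788), PHLDA3 (0.0621 to 0.110) and GDF15 (0.103 to 0.145), and GDF15 was also not called under RLE scaling, under DESeq2 or without the count filter. FAS lost its call under RLE scaling (0.30, adjusted p = 0.0626), under DESeq2 (0.29, adjusted p = 0.124), without the count filter, with only the groups compared and when any of 3 libraries was left out.

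Base composition moved with these calls. The 10 members higher in shAMB had a median transcript GC content of 59.3%, and the 13 lower members one of 41.7%, while in sh4 the 12 higher members had 45.6%. PLXNB2, PLK3, FDXR, SESN2 and GDF15, at 59.6% to 64.1% GC, were all higher, and the GC tilt of the libraries given above separated the same groups. With length and GC trends removed, 6 members were higher and 18 lower in shAMB. Over all 14905 genes the calls went from 5602 higher and 4238 lower to 4754 and 5952. SPATA18 kept a log2 fold change of 1.14, PLXNB2 and PLK3 went to 0.27 and 0.29 and stayed called, and FDXR went to 0.00 (adjusted p = 0.983). PHLDA3 turned from 0.44 to -0.29 (adjusted p = 0.00201) and SESN2 from 0.61 to -0.13 (adjusted p = 0.118). CDKN1A, at 58.1% GC, fell by more with the trends removed, with a log2 fold change of -1.47 (adjusted p = 3.4e-13). Whether the GC shift arose in the cells or in the libraries was not tested. The same step moved the median of all genes in shAMB from 0.096 to -0.044 and that of the members from 0.014 to -0.152. In sh4 it moved the median of all genes from -0.005 to -0.026 and that of the members from 0.145 to 0.020. In xenografts the median of all genes went from 0.019 to -0.085 and that of the members from 0.182 to -0.075.

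**Figure D4:**
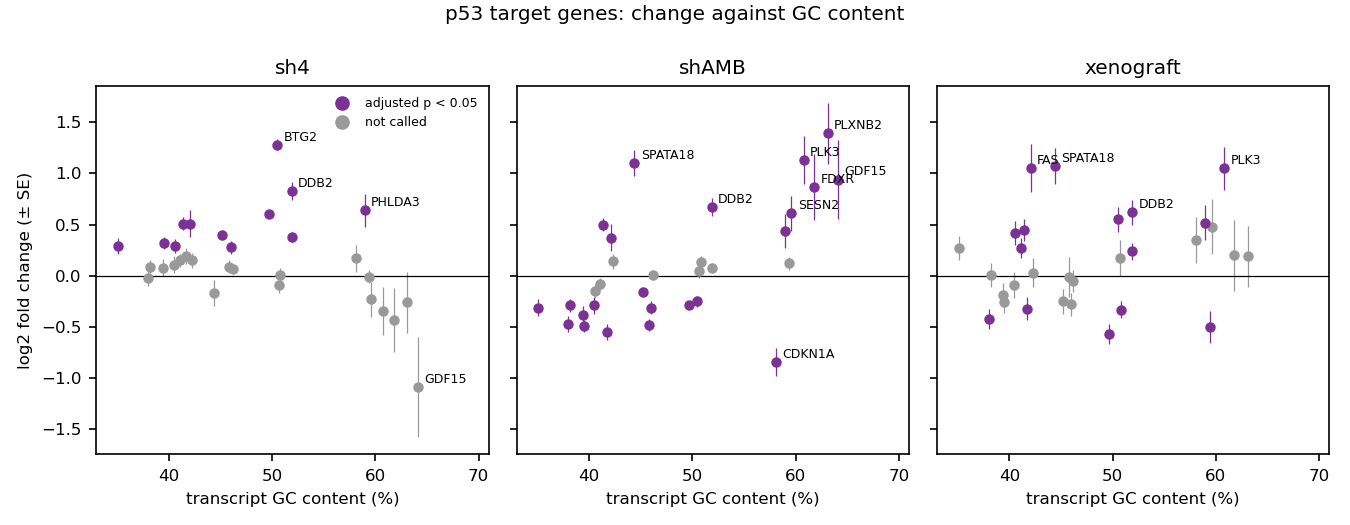
Log2 fold change with SE (y axis) against the GC content of the transcript in percent (x axis) for the p53 targets tested in sh4, shAMB and the xenografts, purple where the adjusted p is under 0.05 and grey otherwise. In shAMB the purple points above 0 include 6 genes at 59.0% to 64.1% GC, DDB2 at 51.9%, and PPM1D, FAS and SPATA18 at 41.4% to 44.4%, while those below 0 lie at 35.1% to 50.5% apart from CDKN1A (58.1% GC, -0.84), and with these trends removed PHLDA3 and SESN2 change sign.

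The doxycycline effects were then compared between lines by the difference of effects in the same fit. Relative to EV, 13 members had a higher effect in sh4 and 0 a lower effect, where 17.8% of all genes were higher and 14.7% lower. DESeq2 also gave 13 and 0, and 15 and 0 had an unadjusted p under 0.05, where 6483 of all 14905 genes did in either direction. Relative to EV, 5 members had a higher effect in shAMB and 5 a lower effect, against 23.7% and 21.7% of all genes, and with length and GC trends removed these were 4 and 15. Over all 14905 genes that step moved the calls from 3539 higher and 3237 lower to 3643 and 5271. The comparisons of sh4 and of shAMB with EV use the same EV libraries. Between the hairpin lines, which share no library, 16 members had a higher effect in sh4 and 6 a lower effect, where 27.8% of all genes were higher and 33.1% lower. The median difference of the members was 0.23 and that of all genes -0.09. CDKN1A differed by 1.01 on the log2 scale (SE 0.191, adjusted p = 3.6e-04), MDM2 by 0.81 (SE 0.0804, adjusted p = 5.9e-07) and BTG2 by 1.53 (adjusted p = 2.1e-10).

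Calls of opposite direction in the hairpin lines, up in sh4 and down in shAMB, were made for 6 members, namely MDM2, BTG2, RRM2B, TNFRSF10B, EDA2R and TRIAP1. These are 19.4% of the 31 tested members, where 6.94% of all genes were called up in sh4 and down in shAMB. RRM2B measured 43.2, 46.4 and 48.9 CPM with DMSO and 61.5, 56.8 and 51.5 CPM with doxycycline in sh4, but 54.7, 61.1 and 54.3 CPM and then 47.9, 45.6 and 43.6 CPM in shAMB. Its sh4 call was lost without replicate 1 of sh4 with DMSO (0.23, adjusted p = 0.0661). The same reversal was seen for TRIAP1, from 56.6, 60.9 and 59.2 CPM to 76.0, 71.9 and 66.0 CPM in sh4 and from 57.2, 66.1 and 61.8 CPM to 51.9, 51.0 and 46.7 CPM in shAMB. EDA2R went from 32.2, 35.01 and 34.96 CPM to 46.7, 44.2 and 43.8 CPM in sh4, and from 38.7, 39.3 and 38.1 CPM to 35.7, 34.8 and 33.1 CPM in shAMB, although on log2(TPM + 1) its shAMB difference was 0.02. In shAMB, TNFRSF10B went from 95, 91.6 and 95.4 CPM to 75.7, 77.1 and 77.4 CPM, and BTG2 from 39.9, 39.4 and 40.3 CPM to 34.1, 36.1 and 30.6 CPM. For all 6 the difference between the lines passed the test, which their choice by opposite calls in the same fit all but required. Members called higher in both lines were DDB2, FAS, PHLDA3 and PPM1D (12.9%, against 8.75% of all genes), with the reversal of PHLDA3 in shAMB under GC correction given above. Of these 4, DDB2 measured 12.7, 10.6 and 12.1 CPM with DMSO and 18.9, 18.99 and 18.4 CPM with doxycycline in shAMB, without overlap.

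**Figure D5:**
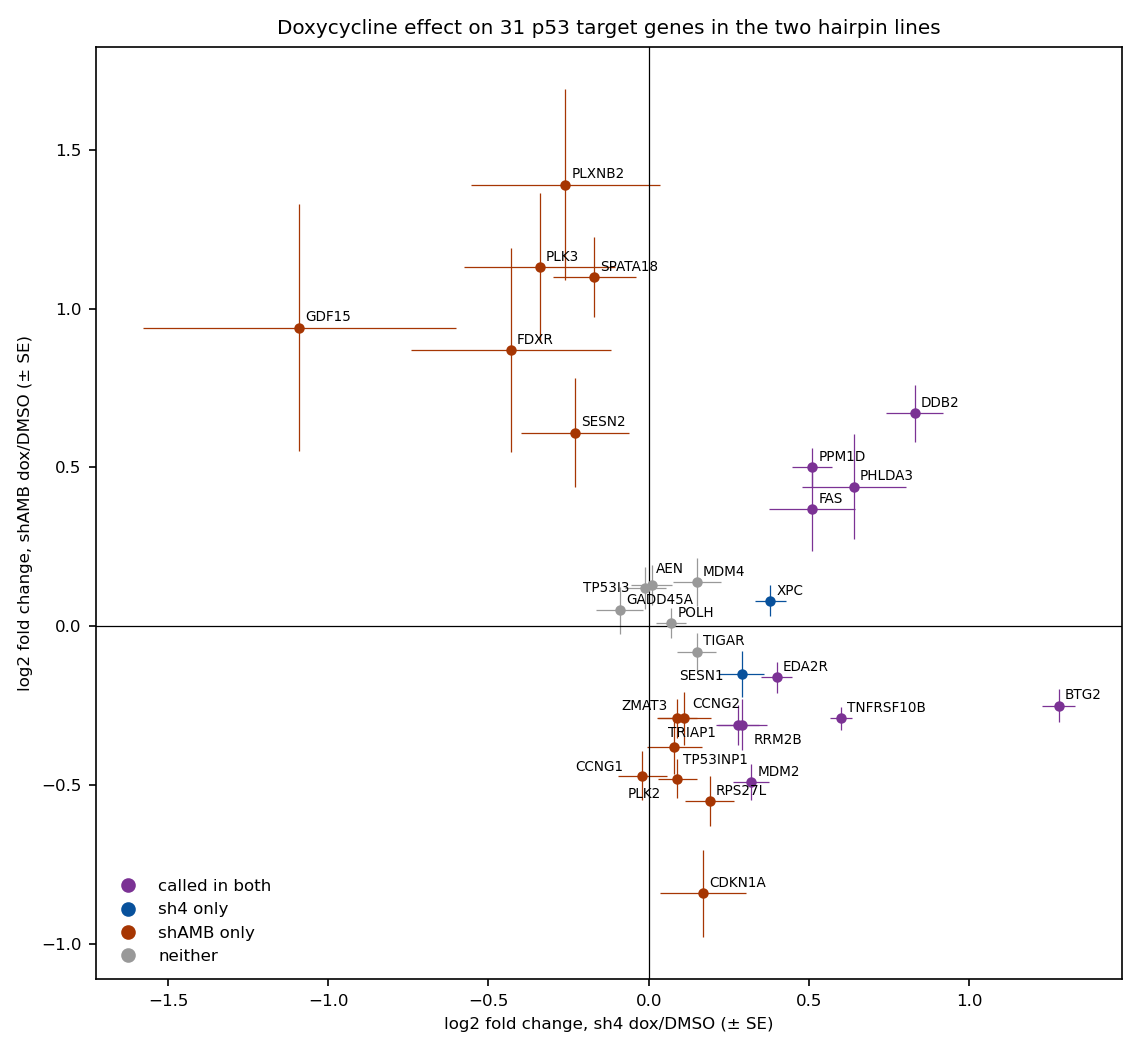
Log2 fold change (± SE) with doxycycline in shAMB (y axis) against that in sh4 (x axis) for the 31 p53 targets tested, coloured by the lines in which each was called. DDB2, PPM1D, PHLDA3 and FAS lie upper right, and the 6 genes of opposite calls (MDM2, BTG2, RRM2B, TNFRSF10B, EDA2R and TRIAP1) lie lower right.

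With DMSO, before induction, few of these genes passed the test between lines. In sh4 against EV 1 member was higher and 0 lower, where 0.597% of all genes were higher and 0.523% lower. DESeq2 called 2 higher and 2 lower, and at an unadjusted p under 0.05 3 were higher and 10 lower, among them MDM2, PPM1D, RRM2B, SESN1, FAS and EDA2R, which rose with doxycycline in this line. These 13 of 31 members stand beside 4180 of all 14905 genes at an unadjusted p under 0.05 in either direction. The comparison with EV and the doxycycline effect of sh4 use the same sh4 libraries with DMSO, with opposite sign. Low values in those libraries would thus give both a lower start and a rise, so the 2 results are not independent. In shAMB against EV 1 was higher and 0 lower, against 1.11% and 0.416%. Unadjusted, these were 3 and 2 (1639 of all 14905 genes in either direction), and DESeq2 called 1 and 0. That member was TNFRSF10B in both, at 74.9 ± 0.217 CPM in EV, 83.9 ± 1.91 in sh4 and 94.0 ± 2.08 in shAMB (mean ± SD, n = 3; log2 fold changes 0.16 and 0.33, adjusted p = 0.0317 and 9.5e-05). The sh4 call was lost under 4 of the alternatives that kept all libraries. The doxycycline effects on this gene were 0.60 in sh4 and -0.29 in shAMB, and they share the DMSO libraries of each line with the comparisons before induction.

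In the EV line, CDKN1A was at 19.1, 21.8 and 24.9 CPM with DMSO and 22.7, 23.5 and 19.4 CPM with doxycycline, with a log2 change of -0.00 (SE 0.135, adjusted p = 0.994). MDM2 was at 231.8, 211.4 and 206.7 CPM and then 199, 197.9 and 201.5 CPM, with a log2 change of -0.12 (SE 0.0568, adjusted p = 0.672). The treated MDM2 libraries were all a little below the controls. FAS had the lowest log2 fold change in EV, -0.44 (adjusted p = 0.672), and its difference between sh4 and EV (0.95, adjusted p = 0.00135) sets this value against 0.51 in sh4.

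In the xenografts, KO tumours had higher levels of SPATA18, FAS, PLK3 and DDB2 and lower levels of TNFRSF10B, CCNG1 and AEN. SPATA18 measured 4.48, 5.96, 6.02 and 5.59 CPM in control and 8.44, 13.6, 12.2 and 12.3 CPM in KO tumours (log2 fold change 1.07, SE 0.175, adjusted p = 7.4e-04). FAS went from 2.35, 1.74, 1.85 and 1.66 CPM to 2.82, 5.33, 3.21 and 4.35 CPM (log2 fold change 1.05, SE 0.233, adjusted p = 0.00445). PLK3 went from 2.03, 2.89, 2.85 and 1.97 CPM to 5.60, 5.42, 5.51 and 3.69 CPM (log2 fold change 1.05, SE 0.208, adjusted p = 0.00228). In each of these 3 the lowest KO tumour stood above the highest control, which their choice required. DDB2 was at 6.42, 6.46, 6.91 and 6.47 CPM in control and 10.4, 9.46, 10.3 and 10.2 CPM in KO tumours (log2 fold change 0.62, SE 0.120, adjusted p = 0.00205), a narrow spread on each side. The other members that were higher were BTG2 (0.55), PHLDA3 (0.52), PPM1D (0.45), SESN1 (0.42), TIGAR (0.27) and XPC (0.24). TIGAR and XPC lost their calls when any of 7 of the 8 tumours was left out (adjusted p of 0.0738 to 0.141 and 0.0607 to 0.115) and PHLDA3 when any of 6 was (0.0613 to 0.0993). All 3 were also not called without the count filter, and TIGAR was not under RLE scaling or DESeq2.

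TNFRSF10B fell from 42.6, 40.4, 39.0 and 35.7 CPM in control to 29.7, 25.2, 25.7 and 25.4 CPM in KO tumours (log2 fold change -0.57, SE 0.0967, adjusted p = 9.0e-04). CCNG1, cyclin G1, which works with MDM2, was at 146.5, 111.5, 130.5 and 133.7 CPM in control and 93.3, 90.5, 100.2 and 105.3 CPM in KO tumours (log2 fold change -0.42, SE 0.0968, adjusted p = 0.00517). AEN, an apoptosis-enhancing nuclease, went from 97.1, 103.2, 109.5 and 102.7 CPM to 89.1, 77.0, 87.0 and 74.2 CPM (log2 fold change -0.33, SE 0.0863, adjusted p = 0.0100). None of these 3 overlapped, which their choice required. RPS27L (-0.32) and TP53I3 (-0.50) were called lower with overlapping groups, and both calls were lost when any of 6 tumours was left out. CDKN1A was at 4.97, 8.29, 6.59 and 6.91 CPM in control and 6.38, 11.4, 9.83 and 6.42 CPM in KO tumours, overlapping and not called (log2 fold change 0.35, SE 0.228, 95% confidence interval -0.15 to 0.85, adjusted p = 0.248). MDM2 went from 289.9, 282.5, 249.1 and 278.5 CPM to 195.5, 240.3, 224.4 and 257.9 CPM (log2 fold change -0.26, 95% confidence interval -0.48 to -0.04, adjusted p = 0.0583), also overlapping, and with length and GC trends removed it was called lower. Those trends removed gave 8 members higher and 8 lower in the xenografts. Over all 15960 genes the calls went from 3382 higher and 3173 lower to 3396 and 5284. The summed neuroblastoma markers were at 7755 to 10859 CPM in KO and 4886 to 6118 CPM in control tumours. This difference came with MYCN (6112 to 8211 against 2433 to 2887 CPM), since the other 8 summed to 1643 to 2861 CPM in KO and 2378 to 3364 CPM in control tumours, with HAND2 (log2 fold change -0.30) and CHGA (-0.41) lower but not called. Fibroblast marker sums were 74.9 to 116 CPM in KO and 48.5 to 82.0 CPM in control tumours. Most of these reads were PDGFRB, with 3427 to 6200 counts in KO and 1985 to 3633 in control tumours, which overlap. COL1A1 had 137 to 494 counts in the tumours. PDGFRB was also read in the cell cultures, at 1147 to 3265 counts, so the sums do not measure host fibroblasts. The part of either list in these results was not tested.

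Calls in shAMB and in the xenografts, which come from separate fits and share no library, coincided in direction for 9 of the 30 members tested in both, where they did for 33.9% of all genes. DDB2, FAS, PHLDA3, PLK3, PPM1D and SPATA18 were higher in both and CCNG1, RPS27L and TNFRSF10B lower in both. BTG2 was lower in shAMB and higher in KO tumours, which is 1 of the 30 members (3.33%), where 0.668% of all genes had opposite calls. Calls in sh4 and the xenografts coincided for 7 members (23.3%, against 13.5% of all genes), BTG2, DDB2, FAS, PHLDA3, PPM1D, SESN1 and XPC. TNFRSF10B was opposite (3.33% of the members, against 6.7% of all genes). The xenograft calls of PHLDA3, RPS27L and XPC are among those lost without single tumours. The difference between culture and xenograft effects was not tested.

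The counts by role stand beside 22.9% of all genes higher and 17.99% lower in sh4, 37.6% and 28.4% in shAMB, and 21.2% and 19.9% in the xenografts, and each role holds few genes. Of the 4 genes that control p53, 2 rose and 0 fell in sh4, 1 rose and 2 fell in shAMB, and 1 rose and 1 fell in the xenografts. Among them, PPM1D was higher in sh4, shAMB and the xenografts (0.51, 0.50 and 0.45), whereas MDM4, an MDM2 relative that masks the p53 activation domain, was called in none (0.15, 0.14 and 0.03). Of 6 cell cycle members tested, 1 rose and 0 fell in sh4, 1 rose and 4 fell in shAMB, and 2 rose and 0 fell in the xenografts. GADD45A, a stress sensor that binds PCNA, was called in none. Of 4 members for DNA repair and nucleotide supply, 3 rose in sh4 (XPC, DDB2 and RRM2B), while POLH, a translesion polymerase, was not called (0.07). In shAMB 1 of the 4 rose (DDB2) and 1 fell (RRM2B), and in the xenografts 2 rose (XPC and DDB2) and 0 fell. Of 5 redox and metabolism members, 1 rose in sh4 (SESN1), 2 in shAMB (SESN2 and FDXR) and 2 in the xenografts (SESN1 and TIGAR, the latter a fructose bisphosphatase). In this role 0 fell in sh4 and in shAMB, and 1 (TP53I3) fell in the xenografts. Of 9 death receptor and apoptosis members tested, 5 rose and 0 fell in sh4, 3 rose and 5 fell in shAMB, and 3 rose and 3 fell in the xenografts. GDF15, a secreted stress cytokine and a strong p53 target in other cells, was at 0.787 CPM or lower in every library, and its log2 fold changes of -1.09 in sh4 (adjusted p = 0.0864) and 0.94 in shAMB (adjusted p = 0.0434) rest on few reads.

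In shAMB, among paralogues, PLK2 changed by -0.48 and PLK3 by 1.13, SESN1 by -0.15 (not called, but called lower at -0.22 under RLE scaling and DESeq2) and SESN2 by 0.61, and MDM2 by -0.49 and MDM4 by 0.14 (not called), while CCNG1 and CCNG2 both fell (-0.47 and -0.29). SESN2 turns negative (-0.13) with GC trends removed. In sh4, SESN1 rose by 0.29 and SESN2 was at -0.23 (not called). Of the TRAIL receptors, TNFRSF10B was well expressed, while TNFRSF10A did not exceed 0.109 CPM in any library. GADD45A ran from 9.85 to 30.7 CPM and GADD45B did not exceed 0.317 CPM.

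Levels between genes were compared per transcript length, as TPM in EV cells with DMSO. RPS27L (mean 176.7 TPM), TRIAP1 (124.4), CCNG1 (118.8), AEN (69.7) and MDM2 (58.7) led the members, and CDKN1A was at 22.4 TPM, close to EDA2R (22.5) and RRM2B (21.9). The ranges of the 3 libraries of CDKN1A (19.99 to 25.15) and EDA2R (21.72 to 23.44) overlapped, so that their order is not set. SPATA18 (2.84), PLK3 (2.46) and FAS (2.43) were low, and GDF15 (0.39), GADD45B (0.08) and TNFRSF10A (0.01) were near the floor.

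Members with a p53 site near the start had calls of several kinds. Of the 12 tested members with a site of at most 2 letters off, MDM2, BTG2 and EDA2R had opposite calls in the hairpin lines, DDB2 and FAS rose in both, CDKN1A, CCNG1, PLK2 and ZMAT3 fell in shAMB and were not called in sh4, SPATA18 and GDF15 rose in shAMB and were not called in sh4, and AEN was called in neither. SESN1 and XPC, the members called in sh4 and not in shAMB, are not among these 12. The exact sites of PLK2 and ZMAT3 therefore belong to genes with log2 fold changes of 0.09 in sh4 and of -0.48 and -0.29 in shAMB. Over all genes, 6.94% were called up in sh4 and down in shAMB, and 8.75% were higher in both. In shAMB 37.6% of all genes were higher and 28.4% lower, whatever their call in sh4. The share of all genes called in shAMB alone was not counted. Windows were matched for 27 of the 33 members, so that others, among them TNFRSF10B, RRM2B and PHLDA3, were not scanned. A link between sites and calls was not tested.

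TP73, a relative of p53 that binds the same sites, rose, with log2 fold changes of 2.39 in shAMB (0.741 ± 0.256 to 3.93 ± 0.593 CPM, n = 3) and 1.23 in the xenografts (1.37 ± 0.204 to 3.22 ± 0.631 CPM, n = 4). The shAMB effect differed from the EV effect by 2.27 (adjusted p = 2.7e-04). In EV and sh4, TP73 was at 0.12 and -0.13 and was not called.

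Of 21 tested genes of the p53 circuit, which covers kinases, acetyltransferases and ligases that act on p53, 0 were called in EV, 4 higher and 7 lower in sh4, 5 and 7 in shAMB, and 3 and 6 in the xenografts. For this list and for the further target and DREAM lists below, length and GC trends were not removed. The GC tilt of the libraries differed between the shAMB groups, and its part in these lists was not tested. The share that fell was 33.3% in sh4 and in shAMB and 28.6% in the xenografts, where 17.99%, 28.4% and 19.9% of all genes were lower. ATM and CHEK1, kinases of the DNA damage response, rose in sh4 by 0.67 and 0.42, where EP300, the acetyltransferase, and RCHY1, a p53 ligase, fell (-0.71 and -0.50). EP300 instead rose in shAMB (0.84) and in the xenografts (0.57). CHEK2, the checkpoint kinase, fell in sh4 (-0.34), shAMB (-1.12) and the xenografts (-1.14).

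Of 22 tested further p53 targets, 6 rose and 1 fell in sh4, 8 rose and 5 fell in shAMB, and 2 rose and 2 fell in the xenografts, with 0 called in EV. The higher shares of 27.3% in sh4 and 36.4% in shAMB lie near the 22.9% and 37.6% of all genes, while the lower share in sh4 was 4.55% against 17.99%, and both shares in the xenografts were 9.09% against 21.2% and 19.9%. ANKRA2 (0.93) and APAF1, the apoptosome scaffold (0.49), rose in sh4, where SERTAD1 fell (-0.59, with overlapping groups). In shAMB, PIDD1, a death domain adaptor, and SERTAD1 rose (1.47 and 1.14), and KITLG, the KIT ligand, fell from 50.2 ± 2.13 to 8.99 ± 0.489 CPM (n = 3, log2 fold change -2.48), with CMBL next (-0.60). KITLG was lower in KO xenografts also (-1.67), as was ACER2 (-0.45), whereas TP53AIP1 rose there from 0.504 ± 0.247 to 3.47 ± 1.06 CPM (n = 4, log2 fold change 2.76). KITLG in sh4 rose by 0.21.

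Of 20 cell cycle genes that p53 and p21 lower through the DREAM complex, 0 were called in EV, 1 rose and 12 fell in sh4, 4 rose and 11 fell in shAMB, and 0 rose and 9 fell in the xenografts. The shares that fell were 60.0%, 55.0% and 45.0%, where 17.99%, 28.4% and 19.9% of all genes were lower. In sh4, MYBL2 (-0.85) and PLK1 (-0.58) fell most and CDC25A rose (0.26). In shAMB, MCM5 and CDC20 rose (0.99 and 0.69) and CDK1 and CCNA2 fell (-0.70 and -0.63), and in the xenografts MYBL2 fell most (-1.53). These values still hold the length and GC trends. CDKN1A was called higher in none of these 3 comparisons with all genes scaled by TMM alone, but in sh4 it was called higher with length and GC trends removed, as given above. A link between CDKN1A and the calls of this list was not tested.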

How the data were processed

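RNA was measured in 18 cell culture and 8 xenograft libraries. Per the labels' processing notes the authors used STAR, SAMtools and RSEM with hg38 (versions and strand setting not given in the sources used here). The authors deposited RSEM expected counts (estimated counts, of which 91.8% in culture and 91.0% in xenografts were whole) and TPM, scaled by the authors for transcript length and library. A stranded total RNA kit is named, yet the labels give polyA RNA, so strand overlap was not resolved (for MDM2 11.05% and for XPC 24.59% of exon bases carry a gene on the other strand, and for TIGAR 18.12% and PHLDA3 18.44% on the same strand, GENCODE release 44).

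Rounded expected counts were tested in edgeR 4.0.16 (R 4.3.3): filterByExpr (14905 and 15960 genes kept), TMM, glmQLFit and glmQLFTest (two-sided), Benjamini-Hochberg over all genes tested. The culture libraries entered 1 fit with 6 group means and the xenografts another, giving 9 comparisons. On simulated counts 100% of the genes changed by 2-fold were recovered in both sets. Only genes with higher counts were changed, at 1 spread for both sets. That spread was near that of the culture (coefficient of variation 0.115) and below that of the xenografts (0.186). Recovery at the spread of the xenografts was therefore not tested, and the value does not cover smaller changes. Totals were 35115915 to 54736733 counts in culture and 47346063 to 62378060 in xenografts. No 2 replicates agreed within sampling noise, with chi-square per degree of freedom of 1.80 to 62.7 and 27.5 to 248. Alternatives were RLE scaling, no count filter, DESeq2 1.42.0, a replicate block, only the groups compared, removal of length and GC trends, each library left out, and log2(TPM + 1).

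The 33 members and the other lists were chosen with earlier results of these data known. Per-library values are given for CDKN1A and MDM2 and, in each comparison, for up to 4 rises and 4 falls of called, non-overlapping members with at least 1 CPM on average. Of the other lists, the 2 largest rises and falls called at 1 CPM or more are named, apart from some genes that are not reported here. Members with opposite calls in sh4 and shAMB are named. Promoters are from RefSeq (GRCh38), and protein identity of paralogues was not analysed here.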

Additional observations from a re-analysis of the deposited data

Results flagged for a closer look

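Differences between lines in the doxycycline effect are flagged where the difference itself passed the edgeR test (adjusted p under 0.05). They were not weighed for a cause. The effect was higher in sh4 than in EV for BTG2 (by 1.39 on the log2 scale), FAS (0.95), DDB2 (0.71), TNFRSF10B (0.59), PPM1D (0.57), MDM2 (0.44), EDA2R (0.43), TRIAP1 (0.42), RRM2B (0.41), SESN1 (0.40), PLK2 (0.36), XPC (0.35) and ZMAT3 (0.26), with adjusted p-values from 3.0e-09 for BTG2 to 0.0320 for ZMAT3. Against EV, the shAMB effect was higher for SPATA18 (1.15), PLK3 (0.91), FAS (0.81), PPM1D (0.56) and DDB2 (0.55) and lower for CDKN1A (-0.84), RPS27L (-0.50), CCNG1 (-0.39), MDM2 (-0.37) and TNFRSF10B (-0.30), with adjusted p-values from 8.4e-05 for PPM1D to 0.0367 for PLK3. These comparisons share the EV libraries.

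Between the hairpin lines the effect was higher in sh4 for BTG2 (1.53), CDKN1A (1.01), TNFRSF10B (0.89), MDM2 (0.81), RPS27L (0.73), RRM2B (0.60), TRIAP1 (0.58), PLK2 (0.57), EDA2R (0.56), TP53INP1 (0.46), CCNG1 (0.45), SESN1 (0.43), CCNG2 (0.40), ZMAT3 (0.39), XPC (0.30) and TIGAR (0.23). It was lower in sh4 for GDF15 (-2.03), PLXNB2 (-1.65), PLK3 (-1.47), FDXR (-1.30), SPATA18 (-1.28) and SESN2 (-0.85). Adjusted p-values ran from 2.1e-10 for BTG2 to 0.0260 for TIGAR. Except for SPATA18, the members lower in sh4 than in shAMB have transcripts of 59.6% to 64.1% GC, and the GC tilt of the libraries differed between the shAMB groups.

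Single xenografts stood apart from the other 3 of their group, by Dixon's criterion on CPM, in 4 of 60 member and group combinations, where chance flags about 1 in 20. These were DDB2 in control replicate 3 (6.91 CPM, highest), PLK3 in KO replicate 4 (3.69 CPM, lowest), POLH in KO replicate 4 (53.5 CPM, highest) and TNFRSF10B in KO replicate 1 (29.7 CPM, highest). KO replicate 4 had the lowest GC tilt of the xenografts (-0.52) and KO replicate 1 the highest (0.51).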

How the results depend on the processing

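Counts of members called higher in sh4 (12) stayed within 1.5 times under all alternatives (11 to 16 with single libraries left out), as did both counts of sh4 against shAMB (15 to 16 higher and 5 to 7 lower). Removing length and GC trends moved the most counts: in EV to 1 lower, in sh4 to 4 lower, in shAMB to 6 higher, in sh4 minus EV to 2 lower, in shAMB minus EV to 15 lower, in xenografts to 8 lower, in sh4 DMSO against EV DMSO to 2 higher and 3 lower, and in shAMB DMSO against EV DMSO to 2 higher and 3 lower. The same step reversed POLH (-0.13) and ZMAT3 (-0.10) in sh4 and XPC (-0.15), POLH (-0.18), SESN2 (-0.13), TP53I3 (-0.53), PHLDA3 (-0.29) and GDF15 (-0.01) in shAMB, and on log2(TPM + 1) EDA2R in shAMB was 0.02. With the fit on only the groups compared, shAMB minus EV had 11 lower. Sh4 DMSO against EV DMSO had 0 higher under RLE, without the count filter, with only the groups compared and with the replicate block, and 2 higher and 2 lower under DESeq2. Over all genes, removing length and GC trends also raised the lower calls, from 2681 to 4622 in sh4, 4238 to 5952 in shAMB and 3173 to 5284 in xenografts. The cause of these changes was not tested.

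Leaving out single libraries gave 0 to 5 lower in sh4, 11 to 20 higher and 0 to 5 lower in sh4 minus EV, 6 to 9 higher in shAMB, 3 to 5 lower in xenografts, and 0 to 1 higher in sh4 DMSO against EV DMSO. Without sh4 doxycycline replicate 3 there were 5 lower in sh4, and 20 higher and 5 lower in sh4 minus EV. Without shAMB DMSO replicate 1 there were 6 higher in shAMB, and without control replicate 3 or 4 or KO replicate 2 or 3 there were 3 lower in xenografts. In sh4 DMSO against EV DMSO the call was lost (0 higher) without replicate 1 or 2 of either group. Leaving out sh4 DMSO replicate 1 and sh4 doxycycline replicate 3 together, chosen after seeing the data, gave 2 lower in sh4, 3 lower in sh4 minus EV, and 0 higher and 1 lower in sh4 DMSO against EV DMSO.

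The replicate numbers gave no sign of pairing, since same-numbered samples correlated at -0.56 to 0.36 in their deviations from the group means, and not every sample matched its own number best. With the replicate block, xenografts had 6 higher and 3 lower, without SESN1 (adjusted p = 0.0645), PHLDA3 (0.0880), XPC (0.137), TIGAR (0.144), RPS27L (0.0837) and TP53I3 (0.0861), and the counts of the other comparisons moved by less than 1.5 times apart from the loss in sh4 DMSO against EV DMSO named above.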
